A study of Mus musculus with 13 samples.

Results

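The sphingosine-1-phosphate (S1P) genes described here are 7 mouse genes, chosen by symbol from the 24984 genes of the tumor count tables and the 24421 of the sprout count tables. They are the receptors S1pr1, S1pr2 and S1pr3, the kinases Sphk1 and Sphk2 that make S1P, the exporter Spns2, and the lyase Sgpl1 that breaks S1P down. All 7 were listed in both kinds of table and in all 13 libraries.

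Transcripts were measured by 50-bp single-end RNA-Seq in endothelial cells (ECs) of 2 origins, and the question in both was what differs in ECs when Apelin, a secreted peptide ligand encoded by Apln, is missing. Tumor ECs were CD31+/CD105+ cells, gated free of DAPI and of the leukocyte marker CD45 and sorted 100 per library from orthotopic tumors of E0771 mouse mammary cancer cells 25 days after injection into C57BL6/J mice. The 3 KO libraries came from Apln-/- mice carrying shApln E0771 cells and the 6 WT libraries from Apln+/+ mice carrying shRenilla E0771 cells, so that Apelin was lowered in host and tumor cells together and the deletion was in all cells of the host. Sprout ECs were CD31+ cells sorted from vessel sprouts of embryoid bodies (EBs), aggregates of differentiating mouse embryonic stem cells placed in a collagen gel at day 8 with VEGFA164 at 30 ng/ml. The 2 STOP libraries carried a gene trap in sense between exons 1 and 2 of Apln and received DMSO, and the 2 GO libraries carried the same trap turned to antisense by a Cre retrovirus and received Apelin at 1000 nM. Both came from haploid-derived C57BL/6 × 129 stem cells and are sister cells, and here genotype, Cre and added Apelin cannot be told apart. Nothing in the labels says that sprout libraries of a group came from separate differentiations, so their p-values measure the spread between these libraries, which may be technical.

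S1P is a lipid signal that is abundant in blood and scarce inside tissue, and vessels are known to depend on it. ECs sense it through S1PR1, a Gi-coupled receptor that strengthens cell junctions, activates Rac and restrains sprouting, while S1PR2 and S1PR3 also couple to other G proteins. Sphingosine kinases phosphorylate sphingosine inside the cell, SPNS2 carries the product out, and the lyase ends the pathway by irreversible cleavage.

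The tumor libraries held 4661044 to 14455093 counts in genes and the sprout libraries 12327030 to 16804071. Levels are given as CPM, the counts scaled to TMM library sizes. Apln, the targeted gene, had between 2.44 and 12.1 CPM in KO and 416 to 1033 CPM in WT. It was lower in all 3 KO libraries, with a log2 fold change of -6.70 ± 0.59 (SE; adjusted p = 6.13e-05, edgeR quasi-likelihood test with Benjamini-Hochberg adjustment). In the libraries labelled STOP it was not lower, at 73.1 ± 9.95 CPM (SD, n = 2) against 62.1 ± 5.49 CPM in GO (SD, n = 2), so the gene's count did not check that label. The labelled cell type was checked with 12 endothelial genes such as Pecam1, Cdh5 and Kdr, all detected in every library. Their summed level was 8480 to 14149 CPM in tumor ECs, 2475 and 2565 CPM in GO, and 644 and 891 CPM in STOP. A list of 6 pluripotency genes such as Pou5f1 and Nanog summed to 4432 and 4384 CPM in STOP and to 1632 and 2766 CPM in GO, against at most 5.48 CPM in any tumor library. This sum was above the endothelial sum in both STOP libraries and in GO 2, so the name sprout ECs gives the CD31+ sort. A list of 5 epithelial genes summed to 941.7 and 724.5 CPM in STOP and to 585.7 and 556.8 CPM in GO, against at most 66.8 CPM in any tumor library. WT 2 stood apart from the other tumor libraries, with 5032 CPM of 6 fibroblast genes such as Col1a1 and Dcn, against 41.5 to 205 CPM in the others. In the sprouts the same fibroblast genes summed to 2946 CPM in STOP 2 and 2922 CPM in GO 1, but 460 CPM in STOP 1 and 610 CPM in GO 2. A list of 8 leukocyte genes summed to 836 CPM in KO 1 and 615 CPM in WT 4, and to at most 62.0 CPM in the other tumor libraries.

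Levels of different genes were compared on the TPM scale, which corrects for transcript length. In tumor ECs S1pr1 was by far the highest of the 7 genes, at 979 ± 372 TPM in KO (SD, n = 3) and 738 ± 146 TPM in WT (SD, n = 6), places 137 and 207 among 23680 genes with a length. Spns2 was next, at 113 ± 62.1 TPM in KO and 83.1 ± 34.9 TPM in WT. Sgpl1 followed with 26.4 ± 10.6 and 20.1 ± 9.60 TPM. Sphk1 was at 20.1 ± 24.8 and 6.76 ± 5.83 TPM, and Sphk2 at 10.3 ± 6.81 and 14.8 ± 6.76 TPM. S1pr2 was at 2.5 ± 1.08 TPM in KO and 11 ± 12.9 TPM in WT, and S1pr3 was lowest, at 0.0209 ± 0.0362 and 0.685 ± 1.38 TPM. Below Spns2 the order in KO was Sgpl1, Sphk1 and Sphk2, and in WT it was Sgpl1, Sphk2, S1pr2 and Sphk1, and in both the ranges of mean ± SD of neighbours in these orders overlapped.

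The order was different in the sprout ECs. In GO the highest was again S1pr1 at 82.7 ± 9.31 TPM (SD, n = 2), followed by Sgpl1 at 69.4 ± 3.05 TPM, with no overlap of the libraries. S1pr2 at 20.1 ± 3.05 TPM and Sphk2 at 19.0 ± 1.17 TPM also lay within each other's spread, above Spns2 at 11.6 ± 0.064 TPM. S1pr3 at 5.47 ± 3.74 TPM and Sphk1 at 2.08 ± 0.757 TPM were lowest, with overlapping spreads. In STOP, Sgpl1 was highest at 66.2 ± 1.87 TPM, S1pr2 stood at 21.2 ± 0.014 TPM, S1pr1 at 17.7 ± 5.81 TPM and Sphk2 at 15.9 ± 0.693 TPM, and the spread of S1pr1 covered both of its neighbours. Spns2 was at 2.62 ± 0.651 TPM, near S1pr3 at 3.42 ± 1.31 TPM and above Sphk1 at 0.86 ± 0.325 TPM. S1pr1 took place 1942 in GO and 6720 in STOP among 24411 genes. Tumor and sprout libraries were made with different kits and counted by different programs, so levels set across them are a description.

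**Figure D1:**
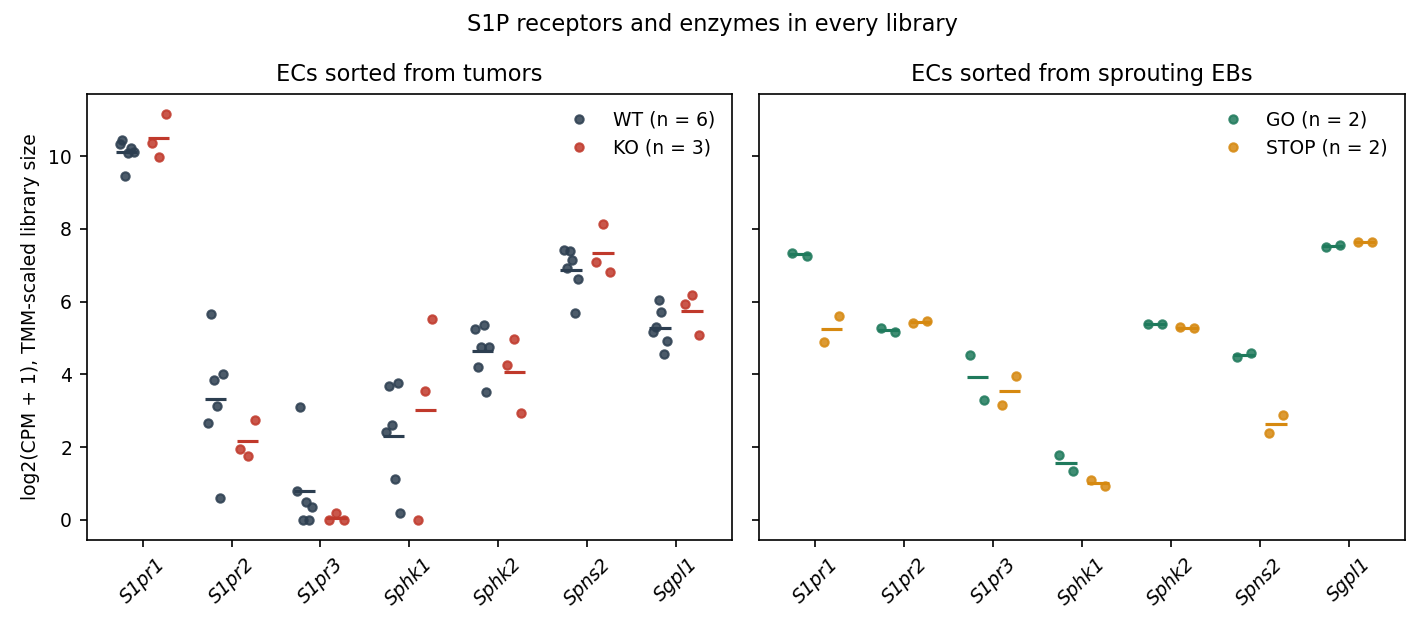
Level of each S1P gene in every library, as log2(CPM + 1) on TMM-scaled library sizes (vertical axis), for tumor ECs (left) and sprout ECs (right). Points are libraries and bars are group means: the GO and STOP points separate clearly for S1pr1 and Spns2, whereas KO and WT points overlap for every gene.

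The 5 S1P receptor genes, with S1pr4 and S1pr5 added, give the receptor makeup of each library as a share of their summed TPM. In tumor ECs nearly all of it was S1pr1, 97.9 ± 1.11% in KO (SD, n = 3) and 97.0 ± 2.15% in WT (SD, n = 6). The lowest share of S1pr1 among tumor libraries was 93.3% in WT 2, and the highest was 99.2% in WT 5. S1pr4, a receptor best known from leukocytes, held 1.85% in KO and 1.52% in WT on average. Of the libraries high in leukocyte genes, KO 1 had the highest S1pr4 share of the tumor libraries, 2.95% with 185 counts, and WT 4 the lowest, 0.318% with 14 counts.

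In sprouts S1pr2 took a larger share. In GO, S1pr1 held 74.1% and 77.5% of receptor TPM and S1pr2 held 18.5% and 18.3%. In STOP, S1pr1 held 35.7% and 45.4% and S1pr2 held 55.8% and 44.1%. The S1pr1 share was therefore lower in both STOP libraries than in either GO library, and the S1pr2 share higher. The level of S1pr2 itself was close between the groups, at 21.2 TPM in STOP and 20.1 TPM in GO, while S1pr1 was at 17.7 and 82.7 TPM. An exact permutation test over 2 against 2 libraries cannot pass the threshold, so the shares are given as values only.

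**Figure D2:**
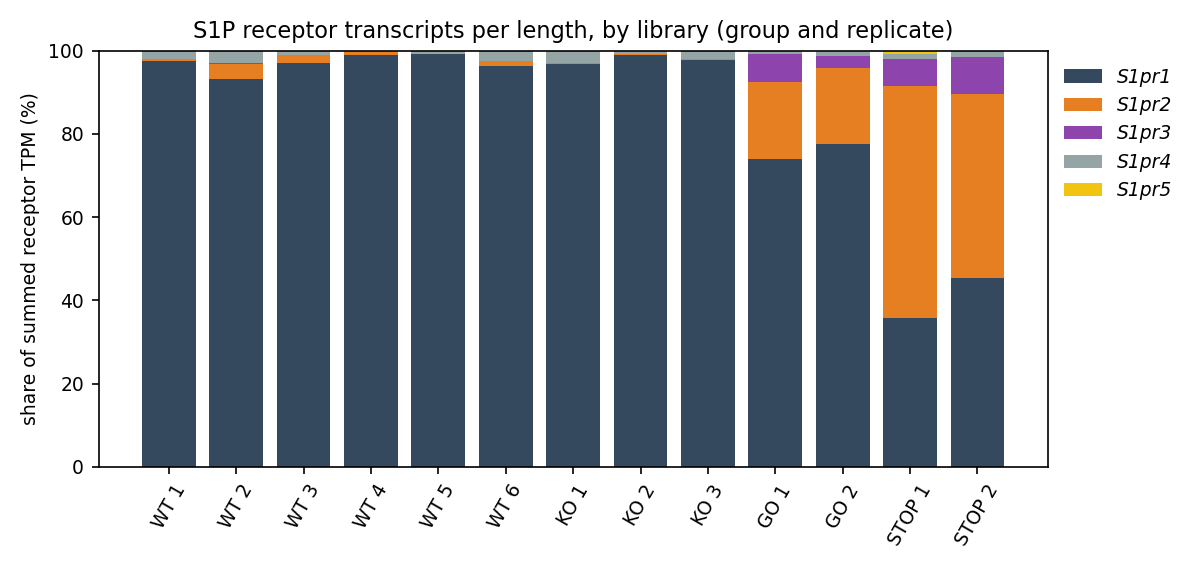
Share of the summed TPM of 5 S1P receptor genes (vertical axis, %) in each of the 13 libraries (horizontal axis, group and replicate). S1pr1 fills 93.3% or more of every tumor bar, 74.1% and 77.5% of the GO bars and 35.7% and 45.4% of the STOP bars, where S1pr2 takes most of the rest.

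In sprout ECs, S1pr1 and Spns2 fell about as far as each other in STOP, and none of the other 5 genes passed the test. S1pr1, the main endothelial S1P receptor, had 28.6 and 47.8 CPM in the STOP libraries and 162 and 153 CPM in the GO libraries. Both STOP values lay well below both GO values. The difference was 4.13-fold, a log2 fold change of -2.05 ± 0.25 (SE; 95% interval -2.64 to -1.45; adjusted p = 0.0117, edgeR quasi-likelihood test). S1pr1 lies at chr3:115710433-115715055 (GRCm38).

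Spns2, the exporter that endothelial cells use to release S1P into blood and lymph, had 4.2 and 6.35 CPM in STOP and 21.1 and 23.2 CPM in GO. The groups were again far apart relative to their spread. The difference was 4.21-fold, a log2 fold change of -2.07 ± 0.28 (SE; 95% interval -2.71 to -1.44; adjusted p = 0.00917, edgeR). So 2 of the 7 genes were called lower (adjusted p under 0.05 and a log2 change beyond 1), where 3.03% of the 14557 genes tested were, and 0 were called higher, where 0.852% were. At an unadjusted p under 0.05 the S1P genes lower remained those 2, against 14.3% of all genes tested, and none was higher, against 12.4%. By the DESeq2 Wald test S1pr1 and Spns2 were also past both thresholds, where 4.22% of all genes tested were called lower. With a block for replicate number they stood at -2.09 and -2.10 (adjusted p = 0.0548 each, edgeR), about as large, but neither was called. Leaving out any sprout library leaves 1 in its group, so only fold changes are read from those fits. Without GO 1 the log2 fold change of S1pr1 was -2.01.

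Neither of the other receptors passed the test. S1pr2, a receptor known for opposing S1PR1 in ECs, had 41.9 and 43.2 CPM in STOP and 37.9 and 34.8 CPM in GO. It was a little higher in both STOP libraries, with a log2 fold change of 0.23 (95% interval -0.12 to 0.57; adjusted p = 0.365, edgeR), an interval that does not reach the change of S1pr1. S1pr3, a receptor also found in mural cells and fibroblasts, had 7.92 CPM in STOP 1, 14.4 CPM in STOP 2, 22.4 CPM in GO 1 and 8.88 CPM in GO 2. Its groups overlapped, and the log2 fold change was -0.49 (95% interval -1.83 to 0.84; adjusted p = 0.596, edgeR). The libraries with more S1pr3, STOP 2 and GO 1, were those with more of the fibroblast genes, and the part of such cells in the S1pr3 level was not tested. Without GO 1 the log2 fold change of S1pr3 was 0.33.

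None of the enzymes passed the test. Sphk1, the kinase that is induced by growth factors, was low, with 17 and 11 counts in STOP and 41 and 19 in GO, equal to 1.15, 0.896, 2.42 and 1.53 CPM. Both STOP values were the lower ones, and the log2 fold change was -0.95 (95% interval -2.10 to 0.20; adjusted p = 0.262, edgeR). Sphk2, the kinase also found in the nucleus and mitochondria, had 38.3 and 37.6 CPM in STOP and 40.8 and 40.4 CPM in GO. Its log2 fold change was -0.10 (95% interval -0.43 to 0.24; adjusted p = 0.710, edgeR), a narrow interval that holds no change beyond the threshold. Sgpl1 had 199 and 197 CPM in STOP and 181 and 189 CPM in GO. Its log2 fold change was 0.10 (95% interval -0.19 to 0.40; adjusted p = 0.638, edgeR).

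**Figure D3:**
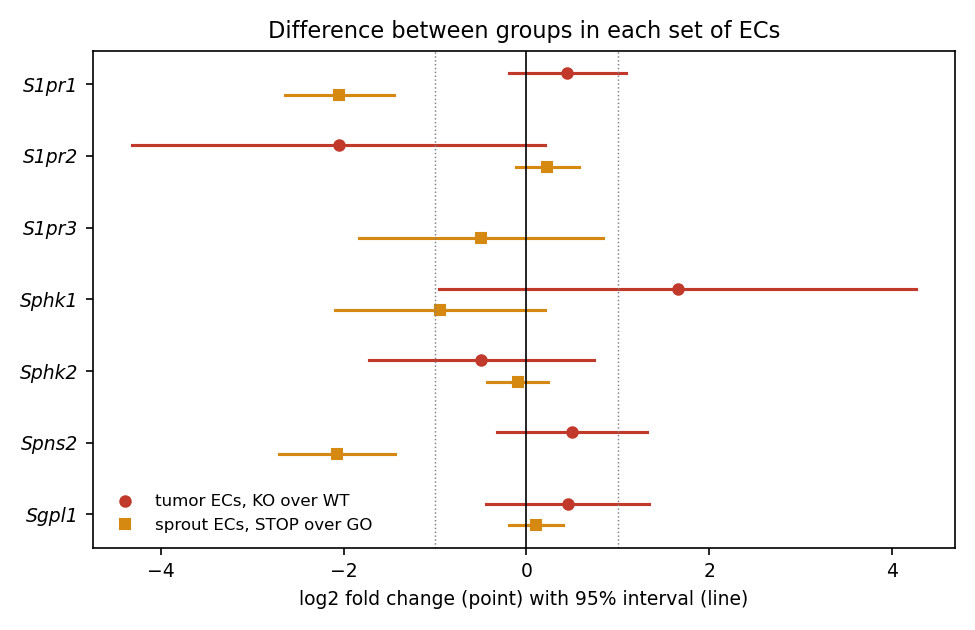
Log2 fold change (point) with its 95% interval (line) for each S1P gene, KO over WT in tumor ECs and STOP over GO in sprout ECs, with dotted lines at the fold threshold. Only the sprout intervals of S1pr1 (-2.64 to -1.45) and Spns2 (-2.71 to -1.44) lie wholly beyond the threshold, and S1pr3 has no tumor point because its counts failed the filter.

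The fall of S1pr1 and Spns2 was close in size to that of the endothelial genes in the same libraries. All 12 endothelial markers were lower in STOP, 11 of them past the threshold, with a median log2 fold change of -1.96 against 0.01 over all genes tested. The 6 pluripotency genes were all higher in STOP with a median of 0.94, of which 1, Dppa5a, was called. Of the blood lineage markers, Alas2 had 11 counts in both STOP libraries together against 119 in GO (adjusted p = 0.0367, edgeR; called lower), and the log2 fold changes of the platelet lineage genes Pf4 and Itga2b were -2.65 and -1.90 (adjusted p = 0.0887 and 0.0526). Of the 8 leukocyte genes 4 were tested, 2 lower and 2 higher in STOP with a median of 0.15, and 0 were called. The part of these cell types in the S1pr1 and Spns2 values was not tested. CD31, used to sort the cells, is also carried by mouse embryonic stem cells. In sorted bulk RNA, fewer ECs among the cells and less S1pr1 or Spns2 transcript per EC cannot be told apart.

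When each sprout library was scaled to the mean of its 12 endothelial markers instead of the whole library, S1pr1 had a log2 fold change of -0.30 ± 0.30 (SE; adjusted p = 0.321, edgeR) and Spns2 of -0.32 ± 0.39 (SE; adjusted p = 0.431, edgeR). On that scale neither gene was called, whereas S1pr2, S1pr3, Sphk2 and Sgpl1 were among 12554 genes called higher. S1pr2 stood at 2.01, Sgpl1 at 1.9, Sphk2 at 1.70, S1pr3 at 1.25 and Sphk1 at 0.85 on the log2 scale. The scaling moved the median of all genes tested to 1.79, so that relative to all other genes the order of the 7 S1P genes was as before: S1pr1 and Spns2 lowest, S1pr2 and Sgpl1 highest.

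**Figure D4:**
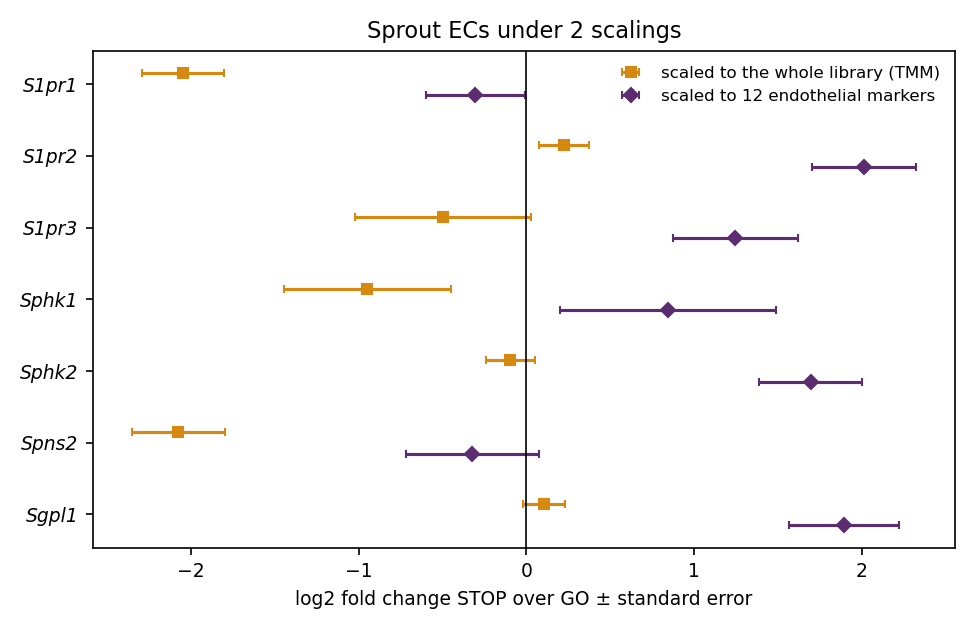
Log2 fold change STOP over GO ± SE for the 7 S1P genes with libraries scaled to all genes (squares) and to 12 endothelial markers (diamonds). S1pr1 moves from -2.05 to -0.30 and Spns2 from -2.07 to -0.32, while S1pr2, Sphk2 and Sgpl1 move from near 0 to between 1.70 and 2.01.

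The genes whose profile over the 13 libraries was nearest to that of S1pr1 were Cracr2b, Thsd1, Flt1, Adgrl4 and Ptprb. Likeness was the root mean square difference of log2(CPM + 1), with each gene centred within each set of libraries, among 11736 genes tested in both sets. It was 0.198 for Cracr2b, 0.220 for Thsd1, 0.262 for Flt1, 0.263 for Adgrl4 and 0.270 for Ptprb, against a median of 0.913. The libraries share their depth and purity across genes, so the likeness is a description. Among these genes are Flt1, a VEGF receptor, and Ptprb, the endothelial phosphatase VE-PTP, and in sprouts the 5 had log2 fold changes between -2.02 and -1.73.

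The reference promoters are shown for the S1P gene that fell in sprouts and has one, Spns2, and for S1pr2 and Sgpl1, whose levels were close between GO and STOP. Each window runs from 250 bases before to 50 after an annotated start in RefSeq (GRCm38.p6), 5′ to 3′ on the gene's strand. RefSeq windows were matched for 6 of the 7 genes, with 11 windows in all, and S1pr1 was not among them. Capitals mark 3 motifs that were searched on both strands and do not overlap in these windows. The ETS core was searched as GGAAG. The core bound by Krüppel-like factors was searched as CACCC. The Sp1 box was searched as GGGCGG. The Spns2 window is chr11:72474978-72475277, minus strand, and lies inside the gene's full span. The S1pr2 window is chr9:20976744-20977043, minus strand, and the Sgpl1 window is chr10:61147635-61147934, minus strand.
Spns2: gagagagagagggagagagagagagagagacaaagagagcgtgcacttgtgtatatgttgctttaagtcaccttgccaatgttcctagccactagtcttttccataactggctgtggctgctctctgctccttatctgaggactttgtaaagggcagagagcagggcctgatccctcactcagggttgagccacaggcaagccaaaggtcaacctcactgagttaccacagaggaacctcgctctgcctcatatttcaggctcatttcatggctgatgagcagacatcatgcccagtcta
S1pr2: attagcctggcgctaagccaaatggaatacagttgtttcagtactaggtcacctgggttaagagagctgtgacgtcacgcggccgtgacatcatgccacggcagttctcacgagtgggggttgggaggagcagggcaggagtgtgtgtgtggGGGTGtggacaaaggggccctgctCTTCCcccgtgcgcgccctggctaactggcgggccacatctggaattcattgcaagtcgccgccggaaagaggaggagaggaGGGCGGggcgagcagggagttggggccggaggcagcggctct
Sgpl1: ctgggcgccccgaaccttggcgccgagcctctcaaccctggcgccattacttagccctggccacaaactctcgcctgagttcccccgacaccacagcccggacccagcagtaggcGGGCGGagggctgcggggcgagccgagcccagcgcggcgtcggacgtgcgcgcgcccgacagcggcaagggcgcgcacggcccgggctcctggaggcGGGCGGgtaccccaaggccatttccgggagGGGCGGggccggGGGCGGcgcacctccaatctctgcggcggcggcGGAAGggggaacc

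The Spns2 window held none of the 3 motifs. It surrounds an annotated start inside the gene, whereas the S1pr2 and Sgpl1 windows lie at the 5′ ends of their genes. The windows are therefore not of the same kind, and their motif counts are not a comparison of main promoters. The S1pr2 window held each of the 3 a single time, counting both strands, and the Sgpl1 window held the Sp1 box 4 times, the ETS core a single time and no Krüppel-like core. Among 32851 RefSeq promoter windows of the same length, 71.4% held the ETS core, 57.5% the Krüppel-like core and 35.7% the Sp1 box on either strand. A window without these letters says nothing of binding elsewhere in the gene.

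In tumor ECs no S1P gene was called in KO against WT. Counts of 6 of the 7 genes were high enough to test, and 0 were called lower, where 0.00765% of 13073 genes tested were (1 gene, Apln), and 0 higher, where 0% were. At an unadjusted p under 0.05 none of the 6 passed in either direction, where 2.94% of all genes tested were lower and 1.87% higher. By the DESeq2 Wald test none was called, and the lowest adjusted p was 0.647, for S1pr2. All 6 had an adjusted p of 1.00 by the edgeR quasi-likelihood test. None of the cell type marker genes was called either. In KO the log2 fold change was above 0 for 11 of 12 endothelial genes (median 0.33), and below 0 for all 8 mural genes (median -1.77) and all 5 fibroblast genes tested (median -4.64). Of 6 leukocyte genes tested 5 were above 0, while S100a8 had 0 counts in each KO library and 4 to 94 counts in each WT library (adjusted p = 0.686, edgeR). The part of these cells in the tumor values of the S1P and sphingolipid genes was not tested.

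S1pr1 had 1307, 1014 and 2300 CPM in KO, and in WT 699 CPM at the lowest, 1153 at the median and 1400 at the highest. KO 3 was above every WT library, and the other KO libraries lay within the WT range. The log2 fold change was 0.45 ± 0.30 (SE; 95% interval -0.19 to 1.08), and without KO 3 it was 0.04. The sprout estimate for S1pr1 on the same scaling, -2.05, lies outside that interval. The direct test of that difference, given below, did not pass after adjustment in edgeR.

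S1pr2 had 2.89, 2.39 and 5.73 CPM in KO, and in WT 0.521 CPM at the lowest, 10.5 at the median and 49.5 at the highest. The KO libraries lay within the WT range, which WT 2 set at the top and WT 5, with 3 counts, at the bottom. The log2 fold change was -2.05 (95% interval -4.31 to 0.20; unadjusted p = 0.0719 and adjusted p = 1.00, edgeR). Without WT 2 it was -1.19.

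S1pr3 was near or under the limit of detection in most tumor libraries. It had 0, 2 and 0 counts in KO 1, KO 2 and KO 3, and 4, 78, 0, 2, 0 and 2 counts in WT 1 to WT 6. A count of 0 allows up to 3 counts, which is 0.510 CPM in KO 1, 0.366 CPM in KO 3, 0.295 CPM in WT 3 and 0.521 CPM in WT 5, counting error only. WT 2 stood alone at 7.62 CPM, and no test of KO against WT was made because the gene failed the filter on low counts. WT 2 was also the library with 5032 CPM of fibroblast genes and, of 8 mural cell genes, 431 CPM against 36.2 to 250 CPM in the other tumor libraries. The part of such cells in the S1pr2 and S1pr3 counts of WT 2 was not tested.

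**Figure D5:**
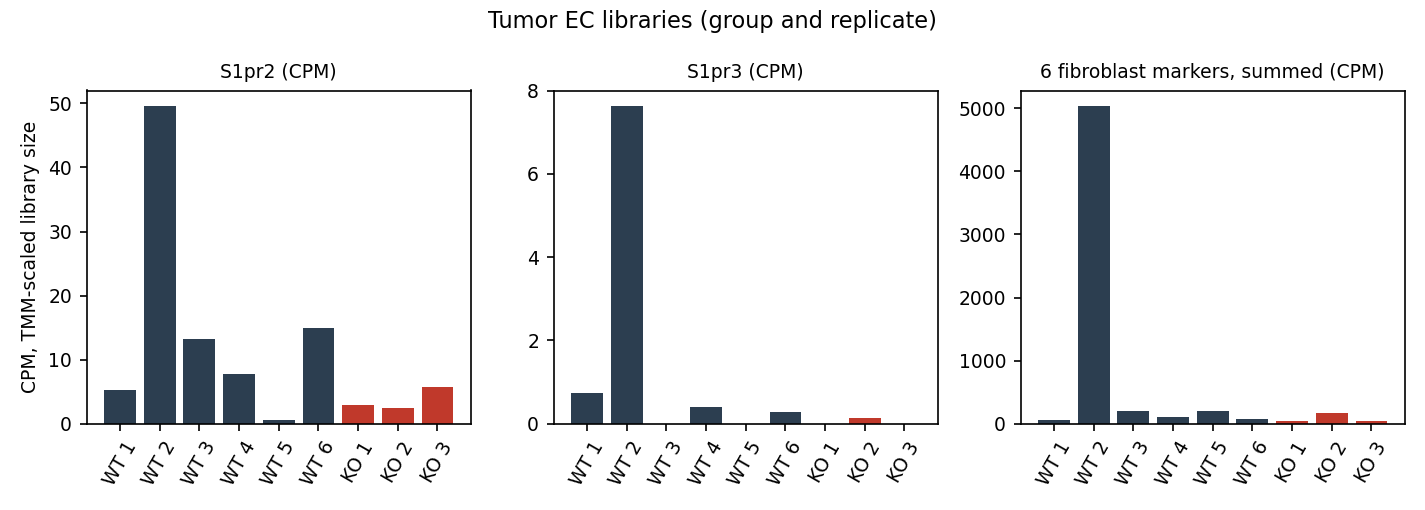
S1pr2, S1pr3 and the sum of 6 fibroblast genes in each tumor EC library (CPM on TMM-scaled library sizes, linear axes from 0). WT 2 is the highest bar in all 3 panels, at 49.5 CPM, 7.62 CPM and 5032 CPM.

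Sphk1 varied widely among the tumor libraries. It had 0, 10.7 and 44.7 CPM in KO, and in WT 0.141 CPM at the lowest, 4.75 at the median and 12.5 at the highest. The KO libraries held both the lowest and the highest value of all 9, and the count of 0 in KO 1 allows up to 0.510 CPM. The log2 fold change was 1.65 (95% interval -0.95 to 4.26; adjusted p = 1.00, edgeR), and without KO 3 it was -0.11. Sphk2 had 18.2, 30.5 and 6.70 CPM in KO and 10.4 to 39.9 CPM in WT, with overlapping groups and a log2 fold change of -0.50 (95% interval -1.72 to 0.73).

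Spns2 and Sgpl1 were both highest in KO 2. Spns2 had 136, 282 and 111 CPM in KO, and in WT 50.7 CPM at the lowest, 131 at the median and 171 at the highest. Only KO 2 lay outside the WT range, the log2 fold change was 0.50 (95% interval -0.33 to 1.32), and without KO 2 it was -0.02. Sgpl1 had 60.2, 72.3 and 32.8 CPM in KO and 22.6 to 65.0 CPM in WT, with a log2 fold change of 0.45 (95% interval -0.44 to 1.34). With 100 cells per library, the spread between libraries left wide intervals for S1pr2 and Sphk1, and all 6 intervals reached beyond 1 on the log2 scale in at least 1 direction.

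Whether the 2 contrasts differ was tested in 1 fit over all 13 libraries, as the log2 fold change of KO over WT minus that of STOP over GO. For S1pr1 the difference was 2.45 ± 0.50 (SE; 95% interval 1.40 to 3.49; unadjusted p = 0.000116, adjusted p = 0.114, edgeR) and for Spns2 it was 2.52 ± 0.66 (SE; 95% interval 1.13 to 3.91; unadjusted p = 0.00131, adjusted p = 0.292, edgeR). Neither passed after adjustment. All 7 S1P genes were tested in this fit, and 0 were called higher, where 0% of 15762 genes were, or lower, where 0.00634% were. At an unadjusted p under 0.05 S1pr1 and Spns2 were higher and none of the 7 was lower, where 2.92% and 1.96% of all genes tested were. By limma voom fitted with library quality weights, the differences of 2.48 for S1pr1 (adjusted p = 0.00280) and 2.39 for Spns2 (adjusted p = 0.0420) did pass. That fit called 110 of the 15762 genes higher. With endothelial scaling the differences were 0.40 ± 0.46 for S1pr1 (SE; adjusted p = 0.522, edgeR) and 0.53 ± 0.77 for Spns2 (SE; adjusted p = 0.611, edgeR). The other 4 genes tested in both sets had differences between -2.34 for S1pr2 and 2.55 for Sphk1, each with an adjusted p of 1.00 in edgeR. S1pr3, which failed the filter in the tumor fit, had a difference of -4.01 (95% interval -9.71 to 1.68; unadjusted p = 0.156, edgeR). Without WT 2 the difference of S1pr3 was -1.54.

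The rest of the pathway was read from a list of 37 other S1P and sphingolipid genes (receptors, phosphatases, transporters, ceramidases and ceramide synthesis). In sprouts 31 were tested, of which 23 lay below 0 and 8 above, with a median log2 fold change of -0.13 against 0.01 over all genes. By edgeR 3 were called lower and 0 higher, where 3.03% and 0.852% of all genes tested were. Acer2, a Golgi ceramidase that yields sphingosine, fell by 1.38 on the log2 scale (adjusted p = 0.00402, edgeR). Cerk, the ceramide kinase, fell by 1.04 (adjusted p = 0.0166) and Abca1, a lipid exporter, fell by 1.40 (adjusted p = 0.0368). Ppap2b, the older symbol of the lipid phosphate phosphatase Plpp3, had a log2 fold change of -0.85 (adjusted p = 0.0394, edgeR), short of the fold threshold. With endothelial scaling Acer2, Cerk and Abca1 stood at 0.41, 0.76 and 0.35. With a block for replicate number Cerk stood at -1.03 (adjusted p = 0.0769, edgeR) and Abca1 at -1.40 (adjusted p = 0.143, edgeR), about as large, but neither was called.

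In tumor ECs 30 of the 37 were tested and none was called by edgeR, with 9 below 0, 21 above 0 and a median log2 fold change of 0.22 against -0.03 over all genes. The lowest p was that of Plpp3, which breaks down extracellular S1P and other lipid phosphates, at 549 to 1658 CPM in KO and 187 to 663 CPM in WT. Its log2 fold change was 1.19 (95% interval 0.39 to 1.98; unadjusted p = 0.00601, adjusted p = 0.906, edgeR) and its groups overlapped. Next were Mfsd2b, the S1P exporter of red cells and platelets, at -5.62 (adjusted p = 0.948), Smpd3, a sphingomyelinase, at -4.37 (adjusted p = 0.957) and Plpp1 at 0.68 (adjusted p = 1.00). Mfsd2b had 1 count in all 3 KO libraries together, in KO 2, and 89 in the 6 WT libraries. Without KO 2 its log2 fold change was -7.01. Smpd3 had 35 counts in KO and 1162 in WT, of which 931 were in WT 2, the library high in fibroblast genes, and 154 in WT 1. By the DESeq2 Wald test Smpd3 was called lower (log2 fold change -4.43, adjusted p = 0.0279), the only call among the 30 genes by that tool, whereas in edgeR without WT 2 it stood at -2.92 (adjusted p = 0.999).

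Downstream, a list of 21 genes that couple S1P receptors to the cell (G proteins, junction genes and flow-response genes among them) showed 2 calls in sprouts, both lower, where 3.03% of all genes tested were. Nos3, the endothelial nitric oxide synthase, had 26.1 and 29.6 CPM in the STOP libraries and 88.7 and 104 CPM in the GO libraries, and fell by 1.80 on the log2 scale (adjusted p = 0.00263, edgeR). Cdh5, the VE-cadherin of endothelial junctions and also 1 of the 12 endothelial markers, fell by 1.98 (adjusted p = 0.0173). Gnai2, the G protein subunit through which S1PR1 signals, had a log2 fold change of -0.94 (adjusted p = 0.0196), short of the fold threshold, and Klf2, a flow-responsive factor, stood at 0.56 (adjusted p = 0.127). Of all 21 the log2 fold change was negative for 16 and positive for 5, and its median was -0.40. With endothelial scaling Nos3 stood at -0.016 (adjusted p = 0.959) and Cdh5 at -0.24 (adjusted p = 0.474), and neither was called. With a block for replicate number Cdh5 stood at -2.03 (adjusted p = 0.0548, edgeR), about as large, but was not called. Nos3 at -1.79 was still called with that block (adjusted p = 0.0408, edgeR). In tumor ECs 20 were tested and none was called by edgeR or DESeq2, with a median of 0.15. There Klf2 stood at 0.84 (adjusted p = 1.00, edgeR), at -0.039 without KO 2 and at 1.27 without KO 3.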

How the data were processed

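Tumor EC reads were counted per gene by the authors with featureCounts (Subread 1.6.2), and the deposited values are whole-number counts. For the sprout ECs the authors aligned with STAR 2.5.0a to mm10, counted with HTSeq 0.6.1p1 and deposited counts closing with 5 lines of unassigned reads, 42.6 to 49.6% of reads being not uniquely aligned. They also deposited expected counts and TPM from RSEM 1.2.25, together with transcript lengths. Whether counting used strand is not given in the sources used here, and the spans of S1pr3, Sphk2 and Spns2 overlap other genes, so their counts are less certain. Sprout labels state only how the trap is oriented, and the names STOP and GO and the Apelin or DMSO treatment are from the study's text.

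Counts were tested with edgeR 4.0.16 in R 4.3.3 (TMM, filterByExpr with a minimum count of 10, robust quasi-likelihood fit), in 1 fit per set of ECs and 1 joint fit, with Benjamini-Hochberg adjustment over all genes tested. A gene was called at an adjusted p under 0.05 with a log2 change beyond 1. Tumor TPM were computed here from the counts and the mean RSEM lengths. Alternatives were DESeq2 1.42.0, DESeq2 size factors, no count filter, no fold threshold, rounded RSEM counts, limma 3.58.1 voom, a replicate block, scaling to endothelial markers and each library left out. Replicates of a group were compared pairwise, and all differed by more than counting noise. The code was tested on simulated data.

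The S1P genes, the lists and the tests were chosen with earlier results of these data known. Named genes were all 7 S1P genes, Apln, each list gene called in either set, the 5 list genes with the lowest p in each set and the 5 genes nearest to S1pr1.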

Additional observations from a re-analysis of the deposited data

Results flagged for a closer look

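In WT 2 of the tumor ECs, S1pr2 was at 49.5 CPM and S1pr3 at 7.62 CPM, each farther from the other 5 WT libraries than Dixon's test allows in a group of 6. Of 7 such tests, 1 for each S1P gene in WT, these were the 2 that passed, and chance flags about 1 in 20 groups. Both genes stood apart in the same library, which also held the most fibroblast and mural cell transcripts.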

How the results depend on the processing

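In sprouts, S1pr1 and Spns2 stayed called with DESeq2, DESeq2 size factors, no count filter and rounded RSEM counts. In these fits 4.22%, 2.88%, 3.25% and 2.35% of all genes tested were called lower. With the replicate block S1pr1 and Spns2 had log2 fold changes of -2.09 and -2.10 (adjusted p = 0.0548 each), as large as without it, but were not called. Likewise not called were Cdh5 at -2.03, Cerk at -1.03 and Abca1 at -1.40, while Acer2 and Nos3 were, and 41 genes were called lower and 3 higher. Same-numbered libraries deviated from their group means with a correlation of -0.434 in sprouts and of -0.140 to 0.0574 in tumors. With 2 sprout libraries per group both numbers give the same value, and crossing the numbers only reverses its sign. The value therefore cannot settle whether sprout libraries were paired. With crossed numbers, added after the data were seen, 933 were lower and 302 higher, and both S1P genes were called. Genes called higher numbered 190 with DESeq2, 222 with no filter and 279 with no fold threshold. With endothelial scaling 16 genes were lower and 12554 higher, S1pr1 was at -0.30, Spns2 at -0.32, S1pr2 at 2.01, S1pr3 at 1.25, Sphk1 at 0.85, Sphk2 at 1.70, Sgpl1 at 1.9, Mfsd2b at 0.96, Smpd3 at 1.47, Abca1 at 0.35, Acer2 at 0.41, Cerk at 0.76 and Gnai2 at 0.83. Leaving out 1 library gave 135 to 548 genes lower and 12 to 341 higher, S1pr1 between -2.47 and -1.70, S1pr3 between -1.0 and 0.33 and Smpd3 between -1.05 and 0.98. The lowest counts came without GO 1 and without STOP 1.

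In tumors, DESeq2 called 50 genes lower and 8 higher, no filter 7 and 9 and the block 2 lower, none of them an S1P gene. Sphk1 was at -0.29 with the block, and with endothelial scaling Cerk was at -0.19, Nos3 at -0.13 and Cdh5 at -0.064. Leaving out 1 library gave 1 to 2 genes lower, Sphk1 between -0.11 and 2.23, Spns2 between -0.023 and 0.74, Gnai2 between -0.21 and 0.065, Klf2 between -0.039 and 1.27, Cerk between -0.094 and 0.30 and Nos3 between -0.078 and 0.47. For the difference of the contrasts, limma voom called 4 genes lower and 110 higher, with S1pr1 at 2.48 and Spns2 at 2.39. DESeq2 size factors and no filter each called 2 higher, and the block called 0 lower. With endothelial scaling 4323 were lower, S1pr2 was at -4.42, Sgpl1 at -1.74, S1pr1 at 0.40 and Spns2 at 0.53. The causes were not tested. Groups of 2 sprout libraries and 100 cells per tumor library are small samples, and their part in the spread was not tested. Counts were few for S1pr3 in tumors and for Sphk1 in sprouts.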
